A study of Danio rerio with 9 samples.

Results

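The transcript of egr2b, the zebrafish gene earlier called krox20 or egr2, was followed in sections of embryonic hindbrain. All probes that the platform annotation assigns to egr2b, by symbol, older name or Entrez gene ID (30190), were taken, and this gave 1 probe (number 14010), for 1 gene of the 5355 named ones on the array, among 16227 probes tested. Because there is 1 probe, its readings cannot be set against a second measurement of the same transcript. The series holds 9 one-colour arrays of embryos aged 19 to 20 hours post fertilization, 3 arrays a group, and each sample was pooled from 8 to 10 embryos. The groups were Hoxb1a-deficient r4 (rhombomere 4 of embryos injected with a Hoxb1a morpholino), normal r2 and normal r4 (rhombomeres 2 and 4 of untreated embryos). All embryos carried an islet-1 GFP transgene. The replicate number gives the experiment: experiment 1 had a Hoxb1a-deficient r4 and a normal r4 array, experiment 2 had 1 array of each group, and experiment 3 had 1 Hoxb1a-deficient r4, 2 normal r2 (3a and 3b) and 1 normal r4 array. A morpholino lowers the protein of its target and need not change the transcript, so the level of the hoxb1a transcript does not check the knockdown.

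The hindbrain of the embryo is divided along its length into segments called rhombomeres. egr2b encodes a zinc finger transcription factor that is made in rhombomeres 3 and 5, the segments on either side of r4, where it is required for the segments to form and to take on their identity. In r3 and r5 it activates genes such as epha4a, an Eph receptor that keeps cells of neighbouring segments apart, and the Hox genes hoxa2b and hoxb2a, and it maintains its own transcription. r4 itself, marked by hoxb1a, and r2 do not normally make it. A section cut thick enough to take in a whole r4 can carry tissue of r3 and r5, while a section around r2 adjoins r3 and r1. In such bulk tissue, fewer cells of a type and less RNA per cell cannot be told apart.

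Values are given as multiples of the array median, since each deposited column had a median of about 1. The columns were read as signal divided by 1 constant per array, which the sources used here do not state. The arrays have an upper limit. The highest value of an array lay between 107 and 190, and between 9 and 243 probes of an array shared it. The egr2b probe was close to that limit in r4 sections.

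In Hoxb1a-deficient r4, egr2b read 139, 153 and 113 in experiments 1, 2 and 3. In normal r2 it read 47.8, 24.7 and 52.3 in samples 2, 3a and 3b. In normal r4 it read 124, 152 and 112 in experiments 1, 2 and 3. The values of the r2 arrays all lay below those of the 6 r4 arrays, and the 2 kinds of r4 section overlapped. The group means were 135 ± 19.9 in Hoxb1a-deficient r4, 41.6 ± 14.8 in normal r2 and 129 ± 20.4 in normal r4 (SD, n = 3 each). The lowest group was r2. The order of the 2 kinds of r4 section is not settled, since their means differ by less than their spread and their readings lie near the upper limit.

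**Figure D1:**
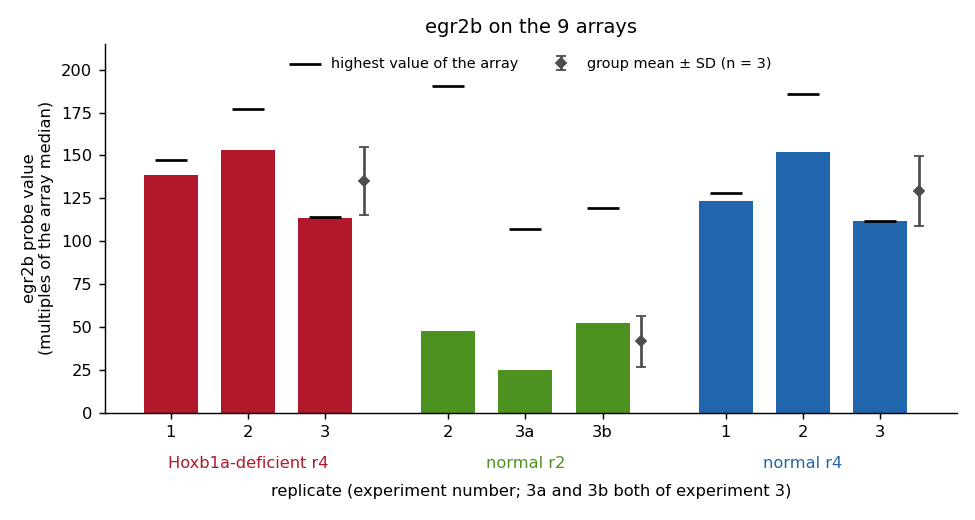
Value of the egr2b probe on each array (bars, vertical axis in multiples of the array median, starting at 0), with the highest value found on the same array (black dashes) and the mean ± SD of each group of 3 (diamonds). The r2 bars, 24.7 to 52.3, stand well below the dashes of their arrays, whereas the r4 bars, 112 to 153, come close to theirs, most of all in experiment 3.

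As a share of the highest value on its own array, egr2b stood at 94.1%, 86.4% and 99.4% in Hoxb1a-deficient r4 of experiments 1, 2 and 3. In normal r2 the shares were 25.1%, 23.1% and 43.9% for samples 2, 3a and 3b. In normal r4 they were 96.5%, 81.5% and 99.99% for experiments 1, 2 and 3. In experiment 3 both r4 readings were thus within 1% of the limit, where 161 probes of the Hoxb1a-deficient and 194 of the normal r4 array had the top value, and if that value is the scanner's ceiling, more transcript would have given nearly the same reading. Experiment 2 gave the r4 readings farthest from the limit, with 10 and 13 probes at the top value of the Hoxb1a-deficient and the normal r4 array. Folds between r4 and r2 sections in experiment 3 are therefore lower bounds, if spots near the limit were saturated.

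The first comparison asked whether egr2b depends on Hoxb1a in sections around r4. The log2 differences of Hoxb1a-deficient minus normal r4 were 0.16, 0.01 and 0.02 in experiments 1, 2 and 3. In experiment 1 the highest value of the Hoxb1a-deficient array was itself above that of the normal r4 array by 0.20 on the log2 scale, so that as a share of the array's limit egr2b was slightly lower there in Hoxb1a-deficient r4. limma's fit over all probes gave a log2 difference of 0.06 ± 0.30 (SE, n = 3 per group, adjusted p = 1.00). Its 95% interval ran from -0.60 to 0.73 on the log2 scale, or from 0.660-fold to 1.66-fold. With the experiment as a replicate block the interval narrowed to between -0.47 and 0.59 (adjusted p = 0.992). With every array capped at the lowest array limit the difference was 0, because all 6 r4 readings lie above that limit. Neither fit shows that the level was equal, and near the array limit an increase would have been hard to see. Called probes are those whose adjusted p lies under 0.05. Here limma called 0 of all probes (0.00%), and 82 had an unadjusted p below that threshold. That is far fewer than the threshold by itself would give among 16227 probes. The fit without a block leaves differences between experiments in its spread, and same-numbered arrays of the 2 groups varied together (correlations of 0.683 to 0.892). These counts therefore do not show that the 2 kinds of r4 section were alike. With the replicate block 2 probes passed (0.0123%), and egr2b was not among them.

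The second comparison set r2 against r4 of normal embryos. The level of egr2b in r2 was 31.5% of that in r4 in experiment 2, the experiment with the r4 readings farthest from the limit, a log2 difference of -1.67. In experiment 3 it was 22.0% for sample 3a and 46.7% for sample 3b, or log2 differences of -2.18 and -1.10. Against all probes of the same pairs of arrays, 60 (0.370%), 63 (0.388%) and 212 (1.31%) had a lower difference than egr2b in samples 2, 3a and 3b. The direction was the same in the 3 pairs. Samples 3a and 3b share 1 normal r4 array, at 99.99% of its limit, so their differences cannot be ranked against that of sample 2.

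**Figure D2:**
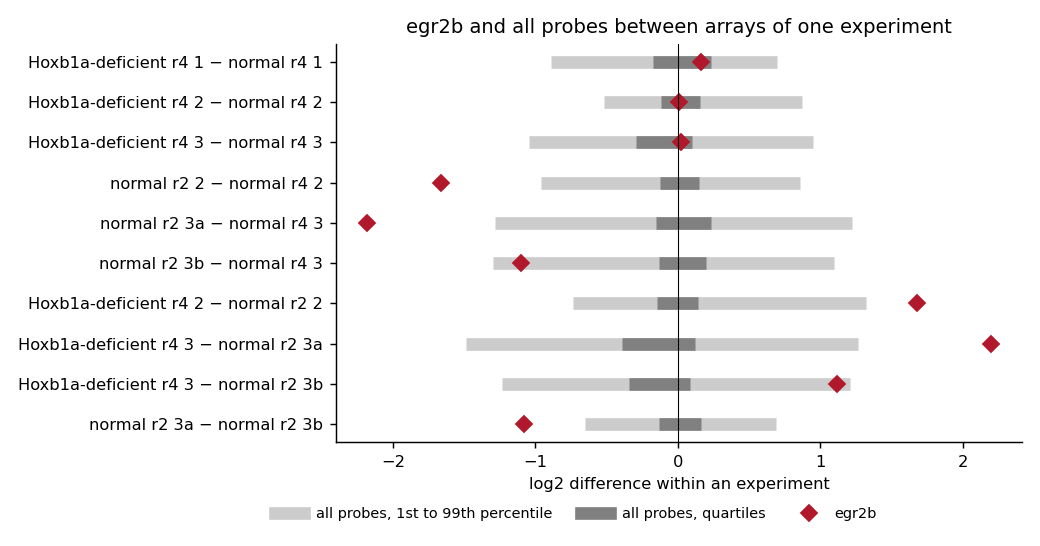
Log2 difference of egr2b (red diamonds) between arrays of 1 experiment, above the spread of all 16227 probes in the same pair (dark bar, quartiles; light bar, the 1st to the 99th percentile). The Hoxb1a-deficient r4 minus normal r4 differences, 0.01 to 0.16, lie in or close to the bulk of probes, the r2 minus r4 differences lie at -1.10 to -2.18, and the 2 r2 samples of experiment 3 differ from each other by 1.08.

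In limma's fit over all 9 arrays egr2b fell in r2 relative to r4 by 1.70 ± 0.30 on the log2 scale (SE, n = 3 per group, adjusted p = 0.0363), with a 95% interval from -2.36 to -1.03, or 0.195-fold to 0.488-fold. Of all probes 0.579% were called, and egr2b was 1 of 72 called lower in r2 (0.444%), beside 22 called higher (0.136%). An unadjusted p under 0.05 was found for 667 of the 16227 probes. With the experiment as a replicate block the difference was -1.63 ± 0.25 (adjusted p = 0.0143), where 1.70% of probes were called, 0.937% as lower and 0.764% as higher. The call is close to its threshold. Of 27 other settings it passed in 8 and did not pass in 19, with adjusted p from 0.00170 to 0.540, while the difference stayed between -1.90 and -1.36. Leaving out any 1 of the 6 arrays of the 2 groups ended the call in the fit without a block (adjusted p from 0.0639 to 0.121). With the replicate block, in alternatives added after the data were seen, it was kept without r2 sample 3a (adjusted p = 0.00868) and without 3b (adjusted p = 0.00218), and the other arrays were not left out of that fit. Without a block the call also ended on leaving out the Hoxb1a-deficient r4 array of experiment 2 or of experiment 3, which enter only through the shared estimate of spread (adjusted p = 0.0689 and 0.0534), whereas without that of experiment 1 the adjusted p was 0.0333. When every array was capped at 107, the lowest of the array limits, the difference was -1.44 and did not pass (adjusted p = 0.101).

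The third comparison, of Hoxb1a-deficient r4 with normal r2, uses the same r2 arrays as the second and is no independent check of it. The log2 differences were 1.68 in experiment 2, and 2.20 and 1.12 against samples 3a and 3b in experiment 3. limma gave 1.76 ± 0.30 (SE, n = 3 per group, adjusted p = 0.0303), with a 95% interval from 1.10 to 2.42, and 1.69 ± 0.25 with the replicate block (adjusted p = 0.0102). Of all probes 0.555% were called, and egr2b was 1 of 62 called higher (0.382%), beside 28 called lower (0.173%). With the block 2.21% were called, 0.875% as higher and 1.34% as lower. The egr2b call was kept in 11 of 27 other settings, with adjusted p from 0.00121 to 0.371. Each of the 6 arrays in the comparison, when left out of the fit without a block, ended it (adjusted p from 0.0670 to 0.164), as did leaving out the normal r4 array of experiment 3 (adjusted p = 0.0587). With the replicate block it was kept without r2 sample 3a (adjusted p = 0.00726) and without 3b (adjusted p = 0.00199).

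**Figure D3:**
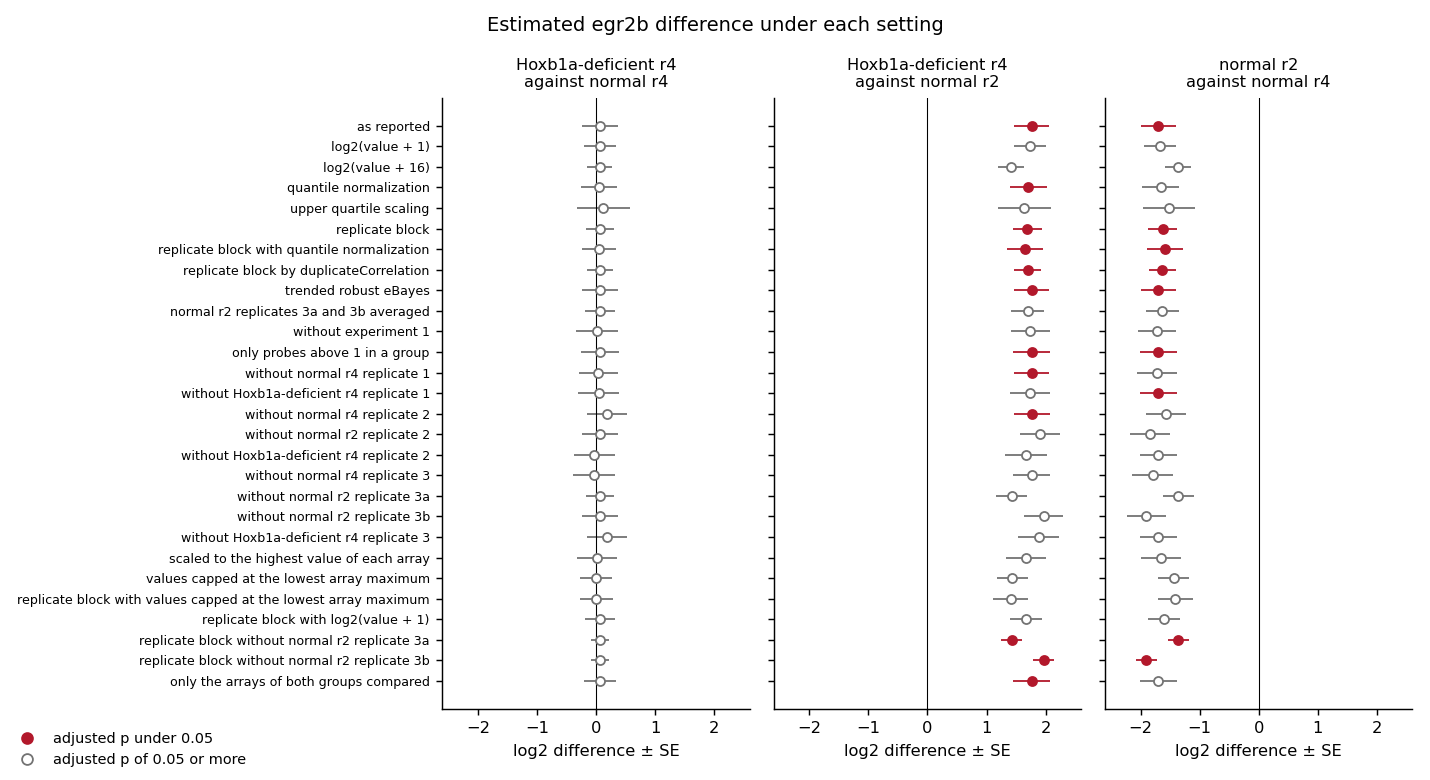
Log2 difference ± SE of egr2b under each processing setting, in 3 panels of the same horizontal scale, with filled red points where the adjusted p was under 0.05 and open grey points where it was not. Estimates against r2 stay between 1.41 and 1.96 in size for Hoxb1a-deficient r4, and between -1.90 and -1.36 for r2 minus normal r4, while the estimates between the 2 kinds of r4 section stay near 0.

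The 2 r2 samples of experiment 3 came from the same experiment and correlated over all probes with r = 0.991, yet differed in egr2b by 2.12-fold, 24.7 in 3a and 52.3 in 3b. A larger absolute difference between these arrays was found for 78 probes (0.481%). The r2 sample of experiment 2, at 47.8, was close to 3b. Leaving out sample 3a moved the r2 minus r4 difference to -1.36, and leaving out 3b moved it to -1.90.

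**Figure D4:**
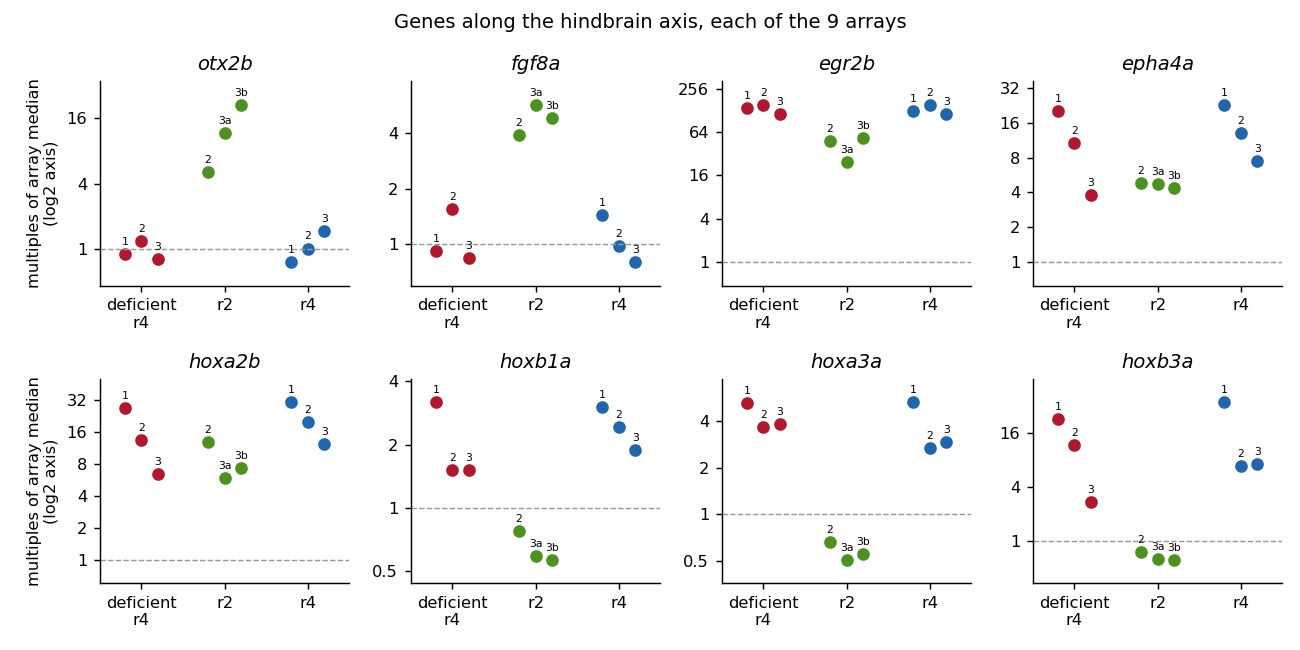
Values on each of the 9 arrays for 8 genes named in the text, in multiples of the array median on a log2 axis, with the replicate number above each point and the array median as a dashed line. egr2b reads 24.7 to 52.3 in r2, below each of its r4 readings, hoxb1a, hoxa3a and hoxb3a are also lower in r2 than in either kind of r4 section, and otx2b and fgf8a are higher in r2. Each probe has its own scale, so heights are not comparable between genes.

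Genes with known places along the hindbrain were read on the same arrays as a description. Which segments each section took in was not determined. hoxa3a, a Hox gene of the hindbrain from r5 backwards, measured 5.25, 3.65 and 3.83 in Hoxb1a-deficient r4. In r2 it measured 0.668, 0.510 and 0.556, and in normal r4 5.28, 2.67 and 2.95. It was below the median of each r2 array and fell in r2 relative to r4, with a log2 difference of -2.59 ± 0.29 (adjusted p = 0.00262). hoxb3a, expressed from r5 backwards at high level in r5 and r6, measured 22.6, 11.8 and 2.69 in Hoxb1a-deficient r4, 0.752, 0.626 and 0.620 in r2, against 34.9, 6.76 and 7.29 in normal r4. It fell in r2, with a log2 difference of -4.17 ± 0.76 (adjusted p = 0.0412), and a second hoxb3a probe was below the array median on each of the 9 arrays. Of 6 measured genes of r5, r6 and behind (8 sought), these 2 fell and 0 rose, where 0.444% of all probes were called lower and 0.136% higher. The median difference of the 6 was -0.14, against 0.08 over all probes. The other 4 (hoxd3a, hoxa4a, hoxb4a and hoxd4a) averaged at or below the median in normal r4.

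Within each array, the log2 ratio of egr2b to the mean of those 6 genes was 5.91 ± 0.43 in r2 and 6.50 ± 0.25 in normal r4 (SD, n = 3 each), a difference of -0.59. An exact two-sided permutation test gave p = 0.1, the smallest that 3 arrays against 3 allow. Taken against hoxa3a and hoxb3a alone, a choice made after the values were seen, the log2 ratio was 6.07, 5.45 and 6.48 in r2 and 3.19, 5.16 and 4.60 in normal r4, a difference of the means of 1.69 in the opposite direction (exact permutation p = 0.1). Since the sign depends on which genes enter, the ratio gives no order between the change of egr2b and that of the genes behind r4.

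On the other side of r2 lie r1, the isthmus and the midbrain. otx2b, a homeobox gene of forebrain and midbrain, measured 0.905, 1.19 and 0.817 in Hoxb1a-deficient r4. It measured 5.09, 11.7 and 21.2 in r2 samples 2, 3a and 3b, and 0.762, 1.02 and 1.48 in normal r4. fgf8a, which encodes the signal of the isthmus, measured 0.920, 1.56 and 0.844 in Hoxb1a-deficient r4, 3.91, 5.69 and 4.80 in r2, against 1.44, 0.984 and 0.802 in normal r4. Both rose in r2 relative to r4, by log2 differences of 3.37 ± 0.46 and 2.19 ± 0.31 (adjusted p = 0.00749 and 0.00907), and they were 2 of 14 measured midbrain, isthmus and r1 genes (median 0.34). Over all probes 0.136% were called higher, and the median was 0.08. Sample 3a, with the lowest egr2b, was neither the highest nor the lowest r2 sample in otx2b, and the highest in fgf8a. Whether the place or thickness of the cut moved egr2b was not tested.

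Genes of tissues outside the brain were also read, as a description, since what tissue each section held is known only through such transcripts. Between r2 and r4, 0.444% of all probes were called lower and 0.136% higher, with a median of 0.08. Of 13 measured genes of the otic vesicle, the ear rudiment that lies beside r4 to r6, 7 fell in r2 and 0 rose (median -2.12): dlx3b, dlx4b, eya1, six4b, gata3, otop1 and epcam. Within experiments the median of the 13 was -1.43, -1.93 and -2.21 for samples 2, 3a and 3b. gata3 is also counted among the r4 genes below. egr2b fell in the same comparison, and the part of ear tissue in its reading was not tested. Of 13 measured neural crest genes, listed because egr2b is also made in crest cells leaving r5, gch2 rose in r2 (2.36 ± 0.22, adjusted p = 0.000978) and 0 fell (median 0.13). The crest regulators sox10 and foxd3 had differences of 0.23 and -0.50, and sox10, named after its values were seen, was below the median on each of the 9 arrays. Among 8 measured r4 genes, hoxb1a, gata3 and sfrp2 fell in r2. hoxb1a measured 3.17, 1.52 and 1.51 in Hoxb1a-deficient r4, 0.774, 0.590 and 0.567 in r2, against 3.02, 2.42 and 1.88 in normal r4.

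The hindbrain targets of Egr2 were then followed through the same sections. epha4a measured 20.3, 10.6 and 3.81 in Hoxb1a-deficient r4 of experiments 1, 2 and 3. In r2 it measured 4.80, 4.75 and 4.35, and in normal r4 22.9, 12.95 and 7.41. The Hoxb1a-deficient r4 value of experiment 3 lay below each r2 value, whereas its egr2b value lay above them. The normal r4 values of epha4a all exceeded the r2 values, but the normal r4 value of experiment 1 was far above that of experiment 3. Its r2 minus r4 difference was -1.43 in experiment 2 and -0.64 and -0.77 in experiment 3, and -1.49 ± 0.55 in the fit, which did not pass the test (limma adjusted p = 0.844, or 0.179 with the replicate block). A second epha4a probe was below the median on each of the 9 arrays.

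hoxa2b, the most anterior Hox gene of the hindbrain, which needs Egr2 in r3 and r5 but is also made in r2, measured 26.4, 13.3 and 6.38 in Hoxb1a-deficient r4. It measured 12.8, 5.86 and 7.22 in r2, and 30.2, 19.9 and 12.2 in normal r4. Within experiments it was lower in Hoxb1a-deficient than in normal r4 by log2 differences of -0.19, -0.58 and -0.94, without passing the test (-0.57 ± 0.51, adjusted p = 1.00, or 0.730 with the replicate block). The egr2b differences in the same pairs of arrays were 0.16, 0.01 and 0.02. The r2 minus r4 difference of hoxa2b was -1.25 ± 0.51 (adjusted p = 0.960) and that of hoxb2a, which Egr2 also activates in r3 and r5, -1.24 ± 0.41 (adjusted p = 0.624). Of the 7 targets measured out of 10 sought, hoxb3a alone passed the test, as lower in r2, where 0.444% of all probes were called lower. The median r2 minus r4 difference of the 7 in the fit was -1.24, against 0.08 over all probes, and 5 of the 7 had an unadjusted p under 0.05, as had 667 of all 16227 probes. Within experiments, where the normal r4 array of experiment 1 does not enter, the median of the 7 was smaller in size. It was -0.70, -0.64 and -0.76 for samples 2, 3a and 3b, against 0.01, 0.01 and 0.03 over all probes. Between Hoxb1a-deficient and normal r4 their median was -0.24, against -0.01 over all probes, with 0 called and 0 at an unadjusted p under 0.05. Of all 16227 probes 0 were called there (0.00%), and 82 had an unadjusted p under 0.05.

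Of the other members of the Egr family, egr1 and egr4 were measured. egr1, an immediate early gene, averaged 1.32 ± 0.35 in Hoxb1a-deficient r4, 1.18 ± 0.015 in r2 and 1.36 ± 0.50 in normal r4. egr4 averaged 0.582 ± 0.144, 0.632 ± 0.071 and 0.585 ± 0.167 in the same groups and was below the median on each of the 9 arrays. Neither passed limma's test in any of the 3 comparisons (adjusted p = 0.960 each between r2 and r4), and egr2a and egr3 were not analysed here. Egr genes can respond to handling of tissue, so a list of immediate early genes was read, 9 measured with egr1 among them. Their median was -0.71 in r2 against r4 over all arrays, with 0 called by limma and 3 at an unadjusted p under 0.05, and -0.44, -0.15 and -0.43 for samples 2, 3a and 3b within experiments. Over all 16227 probes 667 had an unadjusted p under 0.05 in the fit, and the median was 0.08. The largest differences were those of klf2a (-1.503), fosl2 (-1.01), btg2 (-0.88) and ier2a (-0.76). In the fit the differences of klf2a, fosl2, btg2 and ier2a have the sign of the egr2b difference and are smaller in size. In normal r4 of experiment 1, which has no r2 array, klf2a read 9.47 and btg2 27.4. In experiments 2 and 3 they read 1.46 and 2.35, and 10.8 and 8.85. Within experiment 3, btg2 in sample 3a (9.16) was above normal r4. The other r2 readings of these genes were below normal r4 of their experiment. Sample 3a, with the lowest egr2b value, had the least negative median of this list. Their part in the egr2b result was not tested.

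Partners and regulators of Egr2 were read next. nab1a, whose product binds Egr proteins and represses their activity, was below the median on each of the 9 arrays. hcfc1a, a gene for a nuclear cofactor that binds Egr2 in mammals, averaged 81.5 ± 11.6 in Hoxb1a-deficient r4, 104 ± 15.7 in r2 and 92.2 ± 12.0 in normal r4, and was at the highest value of its array in r2 sample 3a. znf703 (nlz1) and znf503 (nlz2), which encode zinc finger repressors that limit segment gene expression around r4, had r2 minus r4 differences of -0.78 and 0.06. None of the 4 passed (limma adjusted p from 0.960 to 0.966, and 0 at an unadjusted p under 0.05; median 0.10). Among 13 measured regulators that act upstream of egr2b, fgf8a rose and hoxb1a fell in r2, and the median was -0.01. Over all probes 0.136% were called higher and 0.444% lower in r2, and the median was 0.08. irx7 and irx1b, Iroquois genes needed for early hindbrain patterning, had differences of -0.55 and -0.91 (adjusted p = 0.960 each). Of these regulators 0 passed between Hoxb1a-deficient and normal r4, with 0 at an unadjusted p under 0.05. Their median was -0.18 there, against -0.01 over all probes. Of all 16227 probes 0 were called in that comparison (0.00%), and 82 had an unadjusted p under 0.05.

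Genes of segment borders and of cells that use Egr2 later in life were also read. Of 9 measured Eph and ephrin genes 0 passed in r2 against r4, with 2 at an unadjusted p under 0.05 (median -0.31), and of 3 rhombomere boundary genes 0 passed, with 0 at an unadjusted p under 0.05 (median 0.14). rfng, which encodes the glycosyltransferase radical fringe of the boundaries, measured 17.6, 7.16 and 10.7 in Hoxb1a-deficient r4, 7.34, 18.4 and 24.4 in r2, against 20.7, 7.16 and 11.7 in normal r4. In mammals Egr2 drives myelination by Schwann cells. Of 4 measured Schwann cell and myelin genes 0 passed in r2 against r4 (2 at an unadjusted p under 0.05, median -0.04). Over all 16227 probes 667 had an unadjusted p under 0.05 in that comparison, and the median was 0.08. With the replicate block 1 of the 4, pou3f2b, passed as higher (1.499 ± 0.42 without it, adjusted p = 0.0182 with it), as did 0.764% of all probes. No member of these 3 lists passed between Hoxb1a-deficient and normal r4, where the fit without a block called 0 of all probes (0.00%).

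The genes most like egr2b were sought among 3422 named genes by Pearson correlation of log2 values over the 9 arrays. These arrays share experiments and r4 tissue, so the coefficients are descriptions with no p. The highest was cd9b, a tetraspanin gene (r = 0.937). It was followed by ripk4 (0.933), the protease inhibitor gene spint2 (0.917), hoxa3a (0.916), pip5k1bb (0.916) and the neuronal differentiation gene neurod1 (0.909). The last 4 were rnf128a (0.908), zgc:163022 (0.907), tent5ba (0.903) and rcan3 (0.902). All 10 were lower in r2 than in r4 on every array, which any gene with that contrast would satisfy. By Spearman correlation 1 of the 10, cd9b, was again among the first 10, where hk1 stood first (rho = 0.917). The order within the groups therefore carries little.

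A second measure compared sizes. It took the 6 differences from the normal r4 array of the same experiment and their root mean square distance from those of egr2b, on the log2 scale. tent5ba was nearest (0.246), with 8.72, 8.41 and 11.2 in Hoxb1a-deficient r4, 2.84, 3.02 and 3.81 in r2, against 8.77, 9.50 and 11.2 in normal r4. prdm12b (0.442), a gene of neural progenitors, col15a1b (0.445) and hoxb1a (0.454) came next, and hoxb2a was ninth (0.578). cd9b stood at 1.33 by this measure. These distances take the egr2b readings in r4 as they stand. Since those of experiments 1 and 3 lie near the array limit, the true differences may be larger and the order of the nearest genes is not settled.

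**Figure D5:**
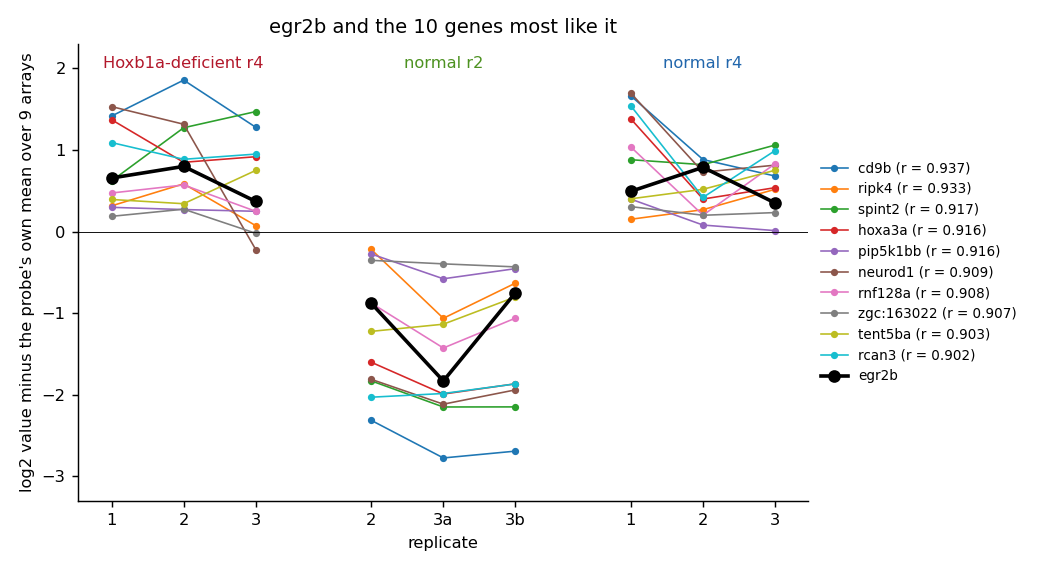
Log2 value of egr2b (thick black) and of the 10 named genes with the highest Pearson correlation to it, each minus its own mean over the 9 arrays, with lines joining arrays of 1 group as a guide only. All are lower in r2. egr2b has its lowest value in r2 sample 3a, and its r4 points are those near the array limit.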

How the data were processed

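The authors deposited 1 table of 16399 rows and 9 columns, without a stated scanner, background treatment or normalization in the sources used here. The values the authors deposited were read as a ratio on the linear scale, spot signal divided by 1 constant for the array, because column medians are 1.00 to 1.01 and values are all positive. Upper quartiles ranged from 3.64 to 6.87. Per the labels' protocols, RNA was amplified and labelled with biotin. Detection flags were not used here, so background was not separated from signal near the median.

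Probes were named through the platform annotation, and 6010 symbols were updated through Entrez IDs in a table of a later assembly, used for names only. The 172 repeated actb2 control spots were left out, which left 16227 probes. Where a gene had several probes the brightest stood for it. limma 3.58.1 under R 4.3.3 was fitted to log2 values without a pseudocount (group means over all 9 arrays, eBayes, two-sided, Benjamini-Hochberg adjustment over all probes, threshold 0.05). Precision is limited by the few arrays. Whether samples came from separate clutches is not stated, so the p-values reflect only how these samples vary, which may be technical. In r2, n = 3 counts 3a and 3b separately and stands for 2 experiments.

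The replicate numbers pair the samples, because the design text uses the number for the experiment. Deviations from group means of same-numbered Hoxb1a-deficient and normal r4 arrays correlated with 0.892, 0.730 and 0.683 over probes. Pairs of different number correlated with -0.781 to 0.504. The highest of these were Hoxb1a-deficient r4 3 with normal r4 2 (0.504) and Hoxb1a-deficient r4 2 with normal r4 3 (0.352), so experiments 2 and 3 were partly alike.

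The gene, the 13 gene lists (136 genes, 91 measured) and the tests were chosen with earlier results of these data known. Named were list members past the test and at most 4 others of a list with the largest differences, the Egr family and the 10 most correlated genes. The fit was checked on simulated data. Alternatives changed the pseudocount, normalization, block, variance model, arrays and array limit. No sequence is shown, since none was used here.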

Additional observations from a re-analysis of the deposited data

How the results depend on the processing

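The egr2b difference kept its direction in each of the 27 alternatives tried for r2 minus normal r4 (-1.90 to -1.36) and for Hoxb1a-deficient r4 minus r2 (1.41 to 1.96). Its calls did not. With values for r2 minus normal r4 first and Hoxb1a-deficient r4 minus r2 second, the calls were lost with log2(value + 1) (-1.67 and 1.73), log2(value + 16) (-1.36 and 1.42), upper quartile scaling (-1.52 and 1.64), 3a and 3b averaged (-1.63 and 1.69) and experiment 1 left out (-1.72 and 1.74). Alternatives added after the data were seen also lost them: scaling to the array's highest value (-1.65 and 1.66), a cap at the lowest array limit (-1.44 and 1.44), this cap with the replicate block (-1.41 and 1.41) and log2(value + 1) with the block (-1.60 and 1.66). Quantile normalization lost the first call alone (-1.66), as did a fit of the compared arrays alone (-1.70). Leaving out 1 array gave -1.90 to -1.36 and 1.42 to 1.96, and -0.03 to 0.19 between the kinds of r4 section. The log2 ratio of egr2b to genes behind r4 reversed from -0.59 to 1.69 when restricted to hoxa3a and hoxb3a, and lay between -0.78 and -0.36 with 1 array left out.

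Counts of called probes for r2 against normal r4 were 94 as reported, 44 with log2(value + 1), 4 with log2(value + 16), 162 with quantile normalization, 62 with upper quartile scaling, 41 with 3a and 3b averaged, 37 scaled to the highest value and 48 capped. With a replicate block they were 276, 443 with quantile normalization added, 358 as a random block, 165 without 3a and 136 without 3b. The block with the cap gave counts of 81, and with log2(value + 1) of 65, both under the 94 reported. For Hoxb1a-deficient r4 against r2 they were 90, then 41, 5, 186, 30 (averaged), 31 (highest value) and 56 (capped), and 359, 541, 428, 177 without 3a and 154 without 3b with a block. The block with the cap or with log2(value + 1) gave counts of 96 and 94. Between the kinds of r4 section they were 0, then 1 with log2(value + 16), 1 without experiment 1, and 2, 5, 9, 3 without 3a and 2 without 3b with a block. There the block with the cap or with log2(value + 1) gave 0. Leaving out 1 array gave 33 to 113 for r2 against normal r4, 27 to 113 for Hoxb1a-deficient r4 against r2, and 0 to 1 between the kinds of r4 section. The replicate block alone changed no call of egr2b. Depth cannot be given for arrays, and the array limit bounds what egr2b could read in r4. The cause of each lost call was not tested.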

Other observations

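Other probes differed between the 2 r2 samples of experiment 3 as much as egr2b did, and those named here were chosen after their values were seen. Among them, 30 probes with 1 gene symbol and a value above the median in 1 of the samples had a difference at least as large. The largest of these were katna1 (0.525 in 3a, 49.1 in 3b), si:ch211-132g1.3 (0.546 and 26.0), tbcb (0.761 and 34.7) and, higher in 3a, plekhj1 (47.9 and 1.18). Some of the 30 had adjoining probe numbers. Higher in 3a were notch2, fzd9b, mtnr1bb, pou3f2a and or63b2, numbers 23 to 27. Lower in 3a were pax6a, number 21, and tbcb and aktip, numbers 3867 and 3868. Whether such differences come from the tissue or from spots on the array was not tested. pax6a, a homeobox gene of the neural tube, read 0.452 in 3a and 4.09 in 3b, and dmbx1a, a homeobox gene of the midbrain, read 8.85 in 3a and 21.5 in 3b, so both were lower in 3a like egr2b. The 14 measured midbrain, isthmus and r1 genes, a list without dmbx1a, did not share that direction as a set. Their median 3a minus 3b difference was 0.07, with 9 above 0 and 5 below. otx2b was among the 5, with 11.7 in 3a and 21.2 in 3b, a log2 difference of -0.85. The median also rests on genes with little signal, since otx2a, otx1, en2b, pax5 and pax8 were below the array median in both samples. Also higher in 3a were actc1a, an actin gene of muscle (14.7 in 3a, 2.86 in 3b), col9a2, a collagen gene of cartilage and notochord (13.7 and 5.69), and the claudin gene cldni (48.2 and 19.5). These are values of 2 arrays with no replicate of each.

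The likeness of the differences at nearby probe numbers was weak, fell over the first distances and was higher again at 20 and 40 numbers apart. The 3a minus 3b log2 differences of probes 1 number apart correlated over all rows with 0.155, and those 2 apart with 0.122. At 5, 10 and 15 apart the correlations were 0.025, 0.037 and 0.041. At 20, 30 and 40 apart they were 0.155, 0.036 and 0.123. This is a description across probes that share 2 arrays. For egr2b, the 19 probes within 10 numbers of it had a median 3a minus 3b difference of 0.05, and 1 of them, actc1a, differed by more than egr2b, in the other direction. Only 7 of the 19 had a mean above 1 over the arrays, so most carried little signal in which a difference could show. The adjacent probes, rxrba and tbx2b, had differences of 0.06 and -0.11, though both were near or below the array median. The probe 20 numbers above egr2b, rnls, had a difference of 0.82, in the other direction from egr2b. The sources used here do not say whether probe numbers follow the layout of the array. The part of array position in the egr2b difference was not tested.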
